A study of Mus musculus with 6 samples.

Results

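The 10 genes described here encode VEGF ligands (Vegfa, Vegfb, Vegfc), VEGF receptors (Flt1, Kdr), the angiopoietin receptor (Tek), angiopoietins (Angpt1, Angpt2) and angiopoietin-like proteins (Angptl2, Angptl4). They were chosen by symbol, and all 10 were found among the 25239 rows of the gene table and passed the filter on low counts. Expression was measured by sequencing of RNA depleted of ribosomal RNA in mouse primary pulmonary fibroblasts, 3 libraries labelled Nutlin 3a-induced senescent and 3 labelled quiescent. Nutlin 3a releases p53 from its inhibitor Mdm2. Per the labels, senescent cells were first synchronized with RO3306, which blocks Cdk1, for 16 hours. They then received Nutlin 3a for 48 hours and, to remove dividing cells, 100 nM BI-2536, which blocks Plk1, with 12 days as the total time. The quiescent samples carry the same text, and the sources used here do not say how their quiescence was reached. Both groups grew in DMEM with 10% serum at 5% oxygen. The labels give no strain, sex or age and do not say whether replicates were separate cultures or animals. The p-values therefore reflect no more than the variation among these libraries, which may be technical.

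VEGF ligands are secreted dimers that bind receptor tyrosine kinases, chiefly on endothelial cells, and VEGF-A is the main driver of blood vessel growth and permeability. Angiopoietins act on the receptor Tek (also called Tie2), where Angpt1 is the steady agonist that keeps vessels quiet and Angpt2 can oppose it. In the lung, fibroblasts and pericytes lie beside capillary endothelium and supply such ligands, while the receptors are best known from endothelial cells.

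Libraries held 93736593 to 109706025 counts, of which 18219831 to 21386546 lay outside the rows Rn45s, Lars2 and Mir6236. Those rows, treated here as ribosomal, held 79.8% to 82.8% of counts although the RNA is described as depleted of ribosomal RNA. Senescent replicate 3 stood apart. Its root mean square log2 difference from the mean of the other libraries of its group was 0.315, against 0.227 and 0.274 for the other senescent libraries and 0.193 to 0.208 for the quiescent ones. The p53 targets Cdkn1a and Mdm2 were higher in senescent libraries, by 1.14 and 0.95 on the log2 scale. Of 10 fibroblast markers all were tested, 4 were higher (Thy1 by 2.72, Fn1 by 0.94) and 5 lower (Col3a1 at -1.95, Pdgfra at -1.45, Pdgfrb at -1.01). Their summed level was 4080 to 4510 CPM (each gene's normalised count, scaled to a fixed library total) in senescent and 4830 to 4960 CPM in quiescent libraries. Of 5 defining endothelial markers, Pecam1, Cldn5 and Emcn had at most 6 counts in any library, while Cdh5 passed as higher and Erg as lower (counts are given with the receptors).

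In edgeR's quasi-likelihood test at an adjusted p under 0.05, 4 of the 10 genes were higher in senescent libraries (Vegfa, Flt1, Angptl2, Angptl4) and 5 were lower (Vegfb, Vegfc, Tek, Angpt1, Angpt2). Kdr did not pass. Over all 14065 tested genes 36.7% were called higher and 37.8% lower, 74.5% in all, so a call alone sets no gene apart from the rest. These are 5158 genes higher and 5316 lower, against 2952 higher and 7435 lower when libraries were scaled by their totals. For 9 of the 10 genes the groups did not overlap in CPM, which held for 78.3% of tested genes. The median log2 fold change was -0.08 over the 10 genes and -0.02 over all tested genes. The falls of Vegfc (1.4-fold) and Angpt2 (1.34-fold) were themselves smaller than 1.5-fold. Against a 1.5-fold threshold tested directly (glmTreat), 4 of the 10 genes were higher and 3 lower, where 15.2% of all tested genes were higher and 17.5% lower. What differs from that background is the size of single changes. Vegfa, Flt1 and Angptl4 lay above the 95th percentile of all tested genes (1.81), and Tek lay below the 5th (-1.85). The calls of all 10 genes were the same with each library left out in turn, senescent replicate 3 included.

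**Figure D1:**
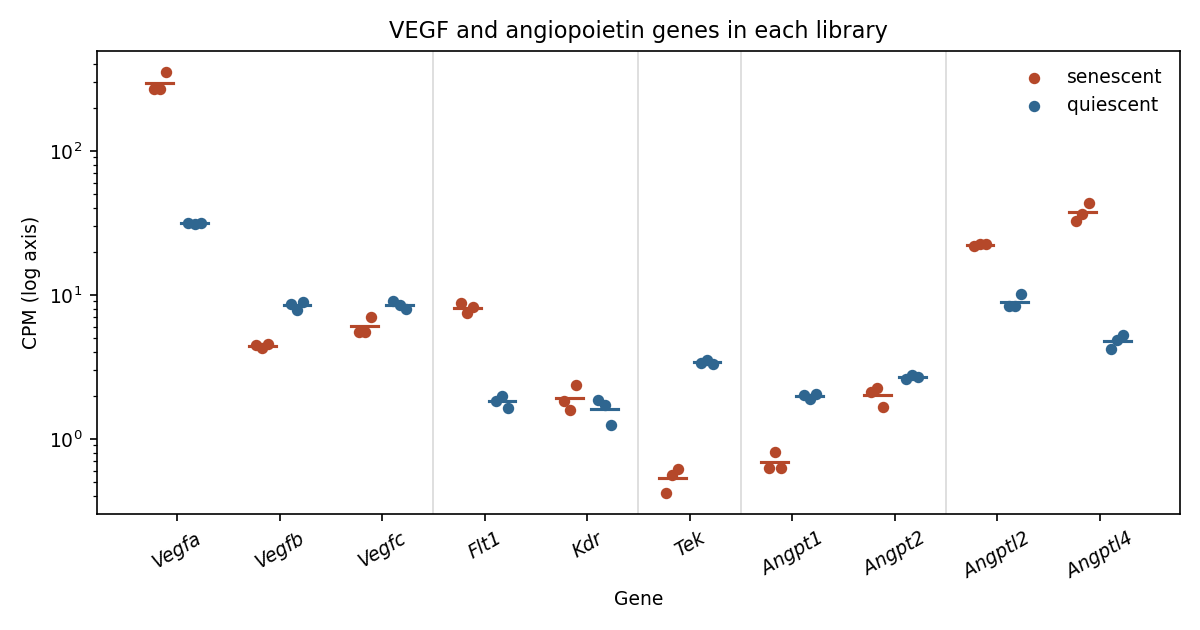
CPM of each gene on a log axis, with 1 point per library (3 senescent to the left, 3 quiescent to the right of each gene) and a bar at the group mean. Vegfa was at 270 to 354 CPM in senescent and 31.2 to 31.8 CPM in quiescent libraries, and only the points of Kdr overlap between groups.

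**Figure D2:**
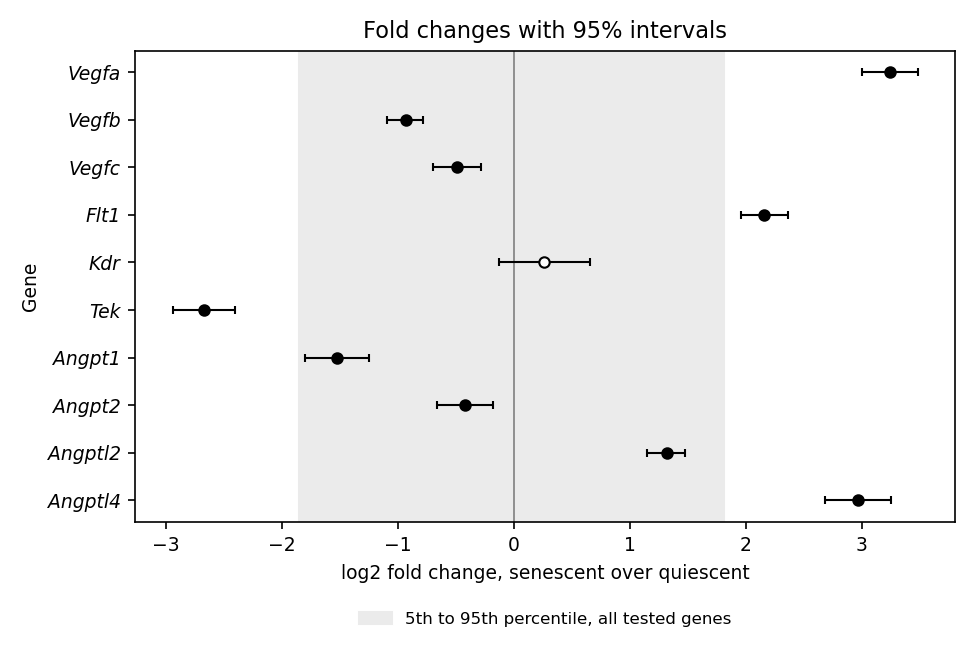
Log2 fold change of each gene, senescent over quiescent, with its 95% interval. Filled points passed the test at an adjusted p under 0.05, the open point (Kdr) did not, and the grey band spans the 5th to the 95th percentile of all tested genes (-1.85 to 1.81).

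Among the VEGF ligands, Vegfa rose and Vegfb and Vegfc fell. Vegfa (ENSMUSG00000023951.17, chromosome 17, 46016993 to 46032369, minus strand, GRCm38) had 26956, 24143 and 36383 counts in senescent libraries, against 3384, 3703 and 3336 in quiescent libraries. Every senescent library was far above every quiescent one, and senescent replicate 3 was the highest. Vegfa averaged 298 ± 48.3 CPM in senescent and 31.5 ± 0.305 CPM in quiescent libraries (SD, n = 3 each), a 9.45-fold increase (log2 fold change 3.24, standard error 0.11, adjusted p = 6.7e-09). Its fold change ranked 272 of 14065 from the top. Without senescent replicate 3 the log2 fold change was 3.10.

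Vegfb (chromosome 19, 6982473 to 6987651), whose product binds Flt1 but not Kdr, had 447, 380 and 470 counts in senescent libraries, against 915, 928 and 951 in quiescent libraries. The senescent values were all below the quiescent ones, and it fell by 0.93 on the log2 scale (standard error 0.07, adjusted p = 3e-07). Vegfc (chromosome 8, 54077606 to 54187096), the ligand best known for the growth of lymphatic vessels through Flt4, had 550, 498 and 725 counts in senescent libraries, against 957, 1010 and 841 in quiescent libraries. In CPM the groups were apart, with 5.51, 5.56 and 7.05 in senescent and 9.00, 8.52 and 7.94 in quiescent libraries. Vegfc fell by 0.49 on the log2 scale (standard error 0.10, adjusted p = 7e-04), and by 0.61 without senescent replicate 3.

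Inside each library, ratios of counts compare ligands without any scaling between libraries. The Vegfa to Vegfc ratio was 49.0, 48.5 and 50.2 in senescent libraries and 3.54, 3.67 and 3.97 in quiescent libraries, a difference of 3.73 on the log2 scale. The Vegfa to Vegfb ratio was 60.3, 63.5 and 77.4 in senescent libraries and 3.70, 3.99 and 3.51 in quiescent libraries, a difference of 4.16. For these and the 3 further pairs given below the groups did not overlap, and the exact two-sided permutation test gave p = 0.1 for each (adjusted p = 0.1 over 5 pairs), the smallest p that 3 against 3 libraries allow.

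**Figure D3:**
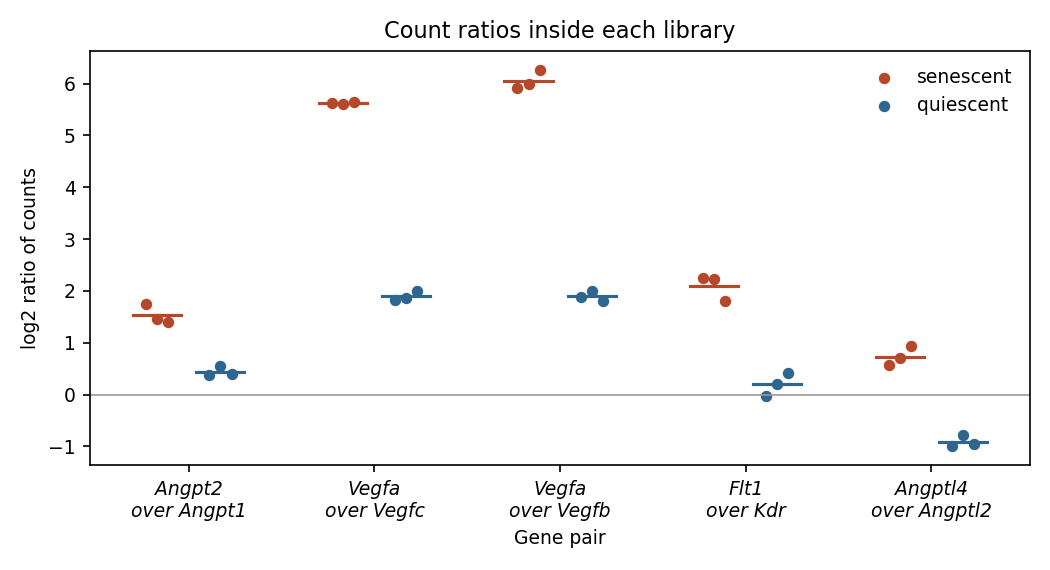
Log2 ratio of the counts of 2 genes inside each library, with 1 point per library (senescent left, quiescent right of each pair) and a bar at the group mean. In all 5 pairs the senescent points lie above the quiescent ones, by 1.10 (Angpt2 over Angpt1) to 4.16 (Vegfa over Vegfb) on average.

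The other ligands of the family, Vegfd and Pgf, moved in opposite directions. Vegfd, a ligand of Flt4, had 899, 774 and 708 counts in senescent libraries, against 6301, 6820 and 5614 in quiescent libraries (log2 fold change -2.79, standard error 0.09, adjusted p = 4.7e-09). Pgf, the placental growth factor that binds Flt1, had 1793, 1628 and 2108 counts in senescent libraries, against 77, 83 and 92 in quiescent libraries (log2 fold change 4.63, standard error 0.09, adjusted p = 2e-11). Levels between genes were compared as CPM per kilobase of annotated exon. On that scale Vegfa was the most abundant of the 5 ligands in senescent libraries, with 80.8%, 81.0% and 84.1% of their summed level, against 18.0%, 18.3% and 19.1% in quiescent libraries. Vegfd held 4.80%, 4.62% and 2.91% in senescent libraries and was the most abundant in quiescent libraries, with 59.6%, 60.1% and 57.2%. Pgf held 7.95%, 8.06% and 7.19% in senescent libraries and 0.603%, 0.606% and 0.777% in quiescent libraries. The summed level of the 5 ligands was 78.0, 77.8 and 98.2 CPM per kb in senescent libraries and 41.3, 39.8 and 38.5 CPM per kb in quiescent libraries. These shares are descriptions with no test, and they depend on the exon lengths of the annotation.

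**Figure D4:**
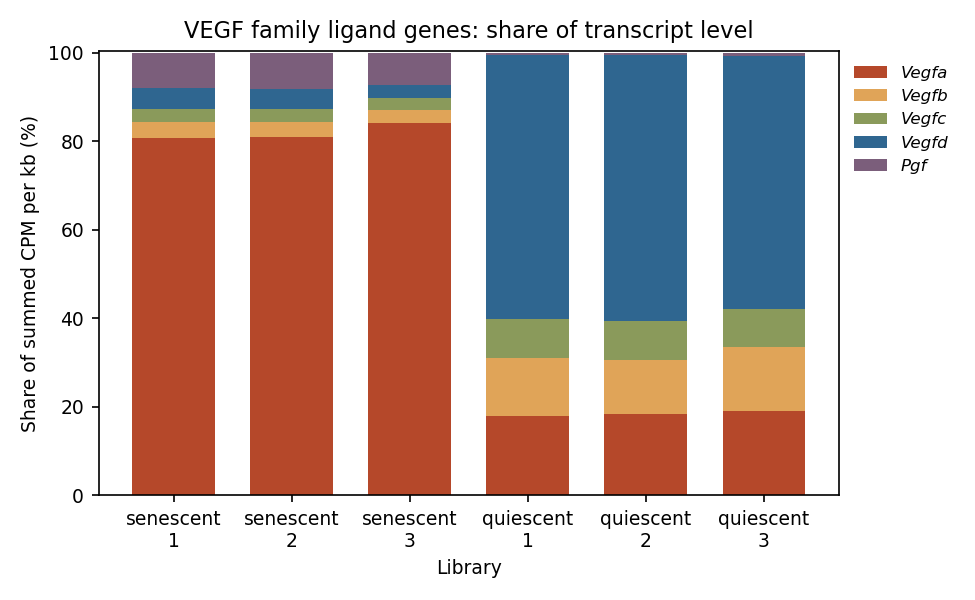
Share of each of 5 VEGF family ligand genes in their summed CPM per kb, in percent, with 1 bar per library (3 senescent, then 3 quiescent). Vegfa fills 80.8% to 84.1% of the senescent bars and 18.0% to 19.1% of the quiescent bars, while Vegfd fills 2.91% to 4.80% of the senescent bars and 57.2% to 60.1% of the quiescent bars.

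Of the VEGF receptors, Flt1 rose and Kdr did not pass the test. Flt1 (chromosome 5, 147561604 to 147726011), which binds VEGF-A tightly and in its soluble form traps it, had 876, 670 and 847 counts in senescent libraries, against 195, 236 and 175 in quiescent libraries. The lowest senescent library was well above the highest quiescent one. It averaged 8.16 ± 0.647 CPM in senescent and 1.83 ± 0.170 CPM in quiescent libraries (SD, n = 3 each), a 4.47-fold increase (log2 fold change 2.16, standard error 0.09, adjusted p = 2.1e-09). Counts per gene do not separate the soluble from the membrane form. Kdr (chromosome 5, 75932827 to 75978458), the receptor through which VEGF-A drives endothelial growth, had 184, 142 and 243 counts in senescent libraries, against 198, 205 and 132 in quiescent libraries. The groups overlapped, and the log2 fold change was 0.26 with a 95% interval of -0.13 to 0.66 (adjusted p = 0.2). Kdr was at 0.10 without senescent replicate 3 and at -0.03 when libraries were scaled by their totals. The Flt1 to Kdr count ratio was 4.76, 4.72 and 3.49 in senescent libraries and 0.985, 1.15 and 1.33 in quiescent libraries.

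Tek, the angiopoietin receptor gene, had the largest fall of the 10 in this comparison. Tek (chromosome 4, 94739289 to 94874976) had 42, 50 and 64 counts in senescent libraries, against 355, 419 and 353 in quiescent libraries. No senescent library came near the quiescent range. It averaged 0.534 ± 0.103 CPM in senescent and 3.40 ± 0.115 CPM in quiescent libraries (SD, n = 3 each), 6.36-fold lower in senescent libraries (log2 fold change -2.67, standard error 0.12, adjusted p = 4.9e-09), and ranked 258 of 14065 from the bottom.

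Receptor genes outside the 10 also went both ways. Flt4, the receptor of VEGF-C and VEGF-D, had 916, 662 and 885 counts in senescent libraries, against 93, 119 and 100 in quiescent libraries (log2 fold change 3.15, adjusted p = 3.5e-10). The co-receptor Nrp1, which binds VEGF-A and class 3 semaphorins, rose by 0.93 on the log2 scale, and Nrp2 fell by 1.46. Per kilobase, Nrp1 was at 12.9 ± 1.45 CPM in senescent and 6.81 ± 0.230 CPM in quiescent libraries, above the level of Flt1 (0.605 ± 0.0479 in senescent and 0.135 ± 0.0126 in quiescent libraries), Kdr and Tek in every library. Tie1, the partner receptor of Tek, had 0, 0 and 1 counts in senescent and 1, 0 and 2 counts in quiescent libraries. The phosphatase gene Ptprb, whose product acts on Tek, had a log2 fold change of 0.69 (adjusted p = 0.023), and it lost the call when quiescent replicate 1 or 3 or senescent replicate 1 or 2 was left out (adjusted p 0.05 to 0.073).

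These receptors are endothelial markers, so other markers of that cell type were read beside them. Cdh5 had 82, 93 and 168 counts in senescent libraries and 25, 25 and 27 in quiescent libraries, and passed as higher (log2 fold change 2.32). Erg, an endothelial transcription factor gene, had 6, 5 and 1 counts in senescent and 32, 28 and 22 in quiescent libraries, and passed as lower (-2.56). Pecam1 had 6, 5 and 5 counts in senescent and 3, 3 and 6 in quiescent libraries. Emcn and Cldn5 had 0 to 2 counts in the libraries of both groups. Of 13 endothelial markers without Flt1, Kdr and Tek, 7 were tested, 2 were higher and 2 lower, and their summed level was 5.09 to 5.72 CPM in senescent and 3.31 to 3.70 CPM in quiescent libraries. The largest part of that sum was Ptprb, at 2.98 CPM in senescent and 1.83 CPM in quiescent libraries, with groups that overlapped. Cdh5 was at 1.16 CPM in senescent and 0.234 CPM in quiescent libraries. Of 5 lymphatic endothelial markers, Flt4 and Prox1 were tested and both were higher, with 77, 50 and 49 Prox1 counts in senescent and 25, 39 and 14 in quiescent libraries, while Lyve1, Mmrn1 and Reln had at most 18 counts in any library. Of 10 pericyte and smooth muscle markers, 9 were tested, 5 were higher and 3 lower. Their summed level was 117 to 154 CPM in senescent and 179 to 190 CPM in quiescent libraries. The largest part of that sum was Pdgfrb, also listed as a fibroblast marker, at 76.1 CPM in senescent and 153 CPM in quiescent libraries. Myh11, the next in level, went the other way, at 37.7 CPM in senescent and 11.6 CPM in quiescent libraries. Of 8 macrophage and leukocyte markers, 5 were tested and all 5 were higher, with a summed level of 10.9 to 14.3 CPM in senescent and 3.98 to 4.25 CPM in quiescent libraries. The largest part of that sum was Cd14, at 6.88 CPM in senescent and 2.3 CPM in quiescent libraries. Ptprc, which marks all leukocytes, had 9, 2 and 7 counts in senescent and 1, 0 and 2 in quiescent libraries. For comparison, 36.7% of all tested genes were higher and 37.8% lower. The part of these cell types in the receptor and ligand values was not tested. In bulk RNA, fewer cells of a type and less RNA per cell cannot be told apart.

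Promoter letters are shown for the ligand and receptors whose values contrast most, so that the 2 VEGF receptors can be read side by side. RefSeq windows were found for 7 of the 10 genes (GRCm38.p6). The 250 bases before the most upstream start found for the gene are printed, 5′ to 3′ on the gene's strand. The windows are chr17:46032378-46032627 (minus strand) for Vegfa, chr5:147726012-147726261 (minus) for Flt1, chr5:75978456-75978705 (minus) for Kdr and chr4:94739039-94739288 (plus) for Tek. Capitals mark letters searched on both strands: ACGTG, the core of hypoxia response elements, its other accepted form GCGTG, the cAMP response element TGACGTCA, the TATA box TATAAA, and the GC box GGGCGG. No 2 matches overlap in these windows.
Vegfa: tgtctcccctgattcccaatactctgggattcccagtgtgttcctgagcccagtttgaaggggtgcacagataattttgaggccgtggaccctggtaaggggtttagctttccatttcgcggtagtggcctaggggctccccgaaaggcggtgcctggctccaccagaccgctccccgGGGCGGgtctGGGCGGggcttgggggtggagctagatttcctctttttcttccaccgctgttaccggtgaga
Flt1: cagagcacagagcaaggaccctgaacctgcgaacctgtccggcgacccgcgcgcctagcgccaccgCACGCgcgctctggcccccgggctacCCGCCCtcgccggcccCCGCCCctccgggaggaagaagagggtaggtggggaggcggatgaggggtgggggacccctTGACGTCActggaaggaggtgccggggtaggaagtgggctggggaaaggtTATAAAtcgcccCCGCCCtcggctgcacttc
Kdr: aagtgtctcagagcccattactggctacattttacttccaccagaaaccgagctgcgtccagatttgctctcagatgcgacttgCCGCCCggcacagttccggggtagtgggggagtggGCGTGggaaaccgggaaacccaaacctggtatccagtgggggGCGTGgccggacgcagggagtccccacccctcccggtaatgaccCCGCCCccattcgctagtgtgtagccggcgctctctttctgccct
Tek: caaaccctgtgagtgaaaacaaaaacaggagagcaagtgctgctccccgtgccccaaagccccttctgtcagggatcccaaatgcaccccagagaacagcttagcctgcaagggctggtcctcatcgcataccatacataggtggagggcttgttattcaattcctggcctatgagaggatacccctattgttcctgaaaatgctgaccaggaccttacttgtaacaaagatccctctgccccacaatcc
Flt1 holds TGACGTCA, 81 bases before its start, and TATAAA, 31 bases before it, besides 1 match of GCGTG and 3 of GGGCGG. Kdr holds 2 matches each of GCGTG and GGGCGG, Vegfa 2 of GGGCGG, and Tek none of these letters. Among 32851 promoter windows of the same length, 1.55% hold TGACGTCA, 12.4% TATAAA, 32.7% GGGCGG and 38.6% either form of the hypoxia core. These shares are not matched for the share of G and C letters. That share is 59.2% for Vegfa, 70.4% for Flt1, 61.6% for Kdr and 51.2% for Tek, beside a median of 52.4% over all windows. A match describes the letters and is not a measured binding site. A lack of matches covers these 250 bases only and says nothing of sequence farther away or at other starts.

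Both angiopoietin genes among the 10 were lower in senescent libraries. Angpt1 (chromosome 15, 42424723 to 42676977) had 63, 73 and 65 counts in senescent libraries, against 216, 223 and 216 in quiescent libraries. The groups were far apart, with a fall of 1.52 on the log2 scale (standard error 0.12, adjusted p = 5.1e-07), or 2.87-fold lower in senescent libraries. An antisense gene, Gm17473, shares 737 exon bases with Angpt1 and has no row under that name among the counted genes. Since no source used here says whether counting used strand, reads of the 2 genes cannot be told apart. Angpt2 (chromosome 8, 18690263 to 18741562) had 212, 201 and 172 counts in senescent libraries, against 279, 327 and 285 in quiescent libraries. Senescent values were lower throughout but closer, with a fall of 0.42 on the log2 scale (standard error 0.11, adjusted p = 0.0042), and of 0.30 without senescent replicate 3. Angpt2 lies within Mcph1 on the opposite strand with no shared exon base, and Mcph1 had a log2 fold change of -0.10 (adjusted p = 0.28).

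The Angpt2 to Angpt1 count ratio was 3.37, 2.75 and 2.65 in senescent libraries and 1.29, 1.47 and 1.32 in quiescent libraries, a difference of 1.10 on the log2 scale. Per kilobase, Angpt2 was at 0.546 ± 0.0825 CPM in senescent and 0.729 ± 0.0190 CPM in quiescent libraries, and Angpt1 at 0.133 ± 0.0205 CPM in senescent and 0.381 ± 0.0172 CPM in quiescent libraries (SD, n = 3 each). Angpt4, the remaining mouse angiopoietin gene, was higher, with 126, 114 and 131 counts in senescent libraries, against 42, 50 and 50 in quiescent libraries (log2 fold change 1.56, adjusted p = 6.4e-07).

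Both angiopoietin-like genes rose. Their products resemble angiopoietins in sequence but do not act through Tek. The other listed genes of this name that were tested were lower, with at most 78 counts in any library. Their log2 fold changes were -1.77 (Angptl1), -0.92 (Angptl6), -1.51 (Angptl7) and -1.26 (Angptl8). Angptl4 (chromosome 17, 33773750 to 33781830), an inhibitor of lipoprotein lipase that is induced by fatty acids and by low oxygen, had 3243, 3261 and 4443 counts in senescent libraries, against 445, 580 and 558 in quiescent libraries. All senescent libraries were high, with replicate 3 the highest as for Vegfa. Angptl4 averaged 37.4 ± 5.41 CPM in senescent and 4.78 ± 0.548 CPM in quiescent libraries (SD, n = 3 each), a 7.81-fold increase (log2 fold change 2.97, standard error 0.12, adjusted p = 9e-08). Angptl2 (chromosome 2, 33216069 to 33247717), a secreted protein linked to inflammation, had 2187, 2011 and 2329 counts in senescent libraries, against 891, 988 and 1082 in quiescent libraries. The senescent libraries were tightly grouped at 21.9 to 22.6 CPM, and Angptl2 rose 2.49-fold (log2 fold change 1.32, standard error 0.07, adjusted p = 2.7e-08). It lies within Ralgps1 on the opposite strand with no shared exon base, and Ralgps1 had a log2 fold change of -0.21 (adjusted p = 0.26).

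The Angptl4 to Angptl2 ratio was 1.48, 1.62 and 1.91 in senescent libraries and 0.499, 0.587 and 0.516 in quiescent libraries. Per kilobase, Angptl4 was at 10.6 ± 1.53 CPM and Angptl2 at 3.55 ± 0.0602 CPM in senescent libraries. In quiescent libraries Angptl4 was at 1.35 ± 0.153 CPM and Angptl2 at 1.43 ± 0.170 CPM, not apart beyond their spread (SD, n = 3 each). Lpl, the lipase gene that Angptl4 acts on, had 904, 911 and 908 counts in senescent libraries, against 3218, 3574 and 2862 in quiescent libraries, and fell by 1.64 on the log2 scale (adjusted p = 1.8e-09). Gpihbp1, the capillary anchor of the lipase, had 0 counts in all 6 libraries, so up to 3 counts per library cannot be told from absence. Itga5 and Itgb1, the subunits of an integrin through which Angptl2 can act, rose by 2.78 and 1.17. Pirb, a further receptor gene listed with them, had 6, 1 and 8 counts in senescent and 6, 5 and 6 in quiescent libraries, and was not tested.

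By level per kilobase the order in senescent libraries was Vegfa, Angptl4, Angptl2, Vegfb, Vegfc, Flt1, Angpt2, Kdr, Angpt1 and Tek. Neighbours whose libraries overlapped there were Vegfb (2.65 to 2.85) with Vegfc (2.25 to 2.88), Flt1 (0.555 to 0.650) with Angpt2 (0.453 to 0.610), and Angpt1 (0.121 to 0.157) with Tek (0.0893 to 0.132). In quiescent libraries the order was Vegfa, Vegfb, Vegfc, Angptl2, Angptl4, Angpt2, Tek, Angpt1, Kdr and Flt1. There, overlap was found between Angptl2 (1.33 to 1.62) and Angptl4 (1.18 to 1.49), between Angpt2 (0.710 to 0.748) and Tek (0.707 to 0.749), and between Kdr (0.138 to 0.206) and Flt1 (0.122 to 0.147). Vegfa stood first in both groups, and Tek stood last in senescent libraries.

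Of the other 38 pathway genes, 34 were tested, 17 were higher, 14 lower and 3 did not pass. Among all tested genes 36.7% were higher and 37.8% lower. The pathway genes had a median log2 fold change of 0.29 (all tested genes -0.02). With libraries scaled by their totals, 14 pathway genes were higher and 16 lower. Among those called at a mean log2 CPM of at least 0, the largest increases after Pgf were those of the integrin gene Itgb3 (4.05), Flt4 and Itga5. At that level the largest decreases were those of Vegfd, of Sema3f (-1.72), a semaphorin gene whose product competes with VEGF at neuropilins, of Lpl and of Nrp2. The genes for maturation of VEGF-C went both ways. Adamts3, the protease that activates VEGF-C, had 22, 34 and 32 counts in senescent libraries, against 220, 260 and 269 in quiescent libraries (log2 fold change -2.90, adjusted p = 2.7e-08). Its cofactor gene Ccbe1 fell by 0.64, and Furin, whose product makes an earlier cut in the VEGF-C precursor, rose by 0.82. The other listed convertase genes did not rise: Pcsk5 had a log2 fold change of -0.21 (adjusted p = 0.023), and Pcsk7, at 0.04, did not pass.

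Genes of the hypoxia response mostly rose, with both groups labelled as grown at 5% oxygen. Of 28 genes for hypoxia-inducible factors (HIF) and their targets, all tested, 20 were higher, 5 lower and 3 did not pass, with a median of 0.97. Among all tested genes 36.7% were higher and 37.8% lower. The HIF prolyl hydroxylase gene Egln3 rose by 3.96 on the log2 scale, the mitophagy gene Bnip3 by 2.76 and Ero1l, an oxidase gene of the endoplasmic reticulum, by 2.40. Adm, the gene of the vasodilator adrenomedullin and itself a HIF target, fell by 0.87, Pfkfb4 by 0.68 and Arnt, the gene of the HIF beta subunit, by 0.47. Hif1a had a log2 fold change of 0.38 (adjusted p = 0.00058), which did not pass when libraries were scaled by their totals (0.08). Epas1, the gene of HIF-2 alpha, fell by 0.25.

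Genes of the PPAR family of fatty acid receptors and their targets, to which Angptl4 belongs, went both ways. Of 14 listed, the receptor genes Ppara, Ppard and Pparg included, 13 were tested, 6 were higher and 4 lower, with a median of 0.00. Beside this list and the activators below stand 36.7% higher and 37.8% lower over all tested genes. Among the receptor genes Ppard rose by 0.63 and Pparg fell by 0.84, and Ppara had a log2 fold change of -0.22 (adjusted p = 0.22). Plin2, a lipid droplet gene, rose by 1.62, Fabp4 by 1.38 and Slc25a20 by 0.65, while Lpl, Pdk4 (-0.27) and Cpt1a (-0.23) were lower. Of 10 activators of Vegfa transcription outside hypoxia, all tested, 6 were higher and 4 lower, with a median of 0.31. Fosl1 rose by 3.89, Egr1 by 2.80 and Jun by 1.88, and Foxm1 (-1.88), Stat3 (-0.50) and Fos (-0.35) were lower. With libraries scaled by their totals, 6 genes of the PPAR list were higher and 7 lower, and 3 activators were higher and 4 lower.

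**Figure D5:**
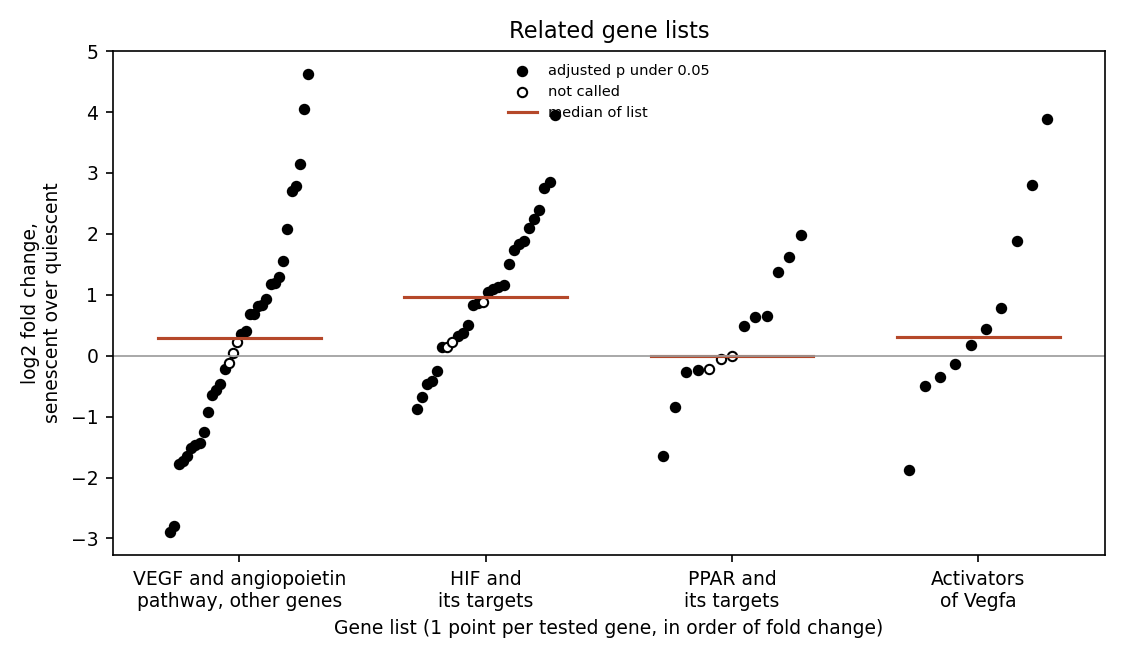
Log2 fold change, senescent over quiescent, of each tested gene in 4 lists, in order within each list. Filled points passed at an adjusted p under 0.05, open points did not, and the red bar is the list's median: 0.29 for the pathway, 0.97 for HIF and its targets, 0.00 for PPAR and its targets and 0.31 for activators.

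The genes most like 3 of the 10 were found by the root mean square distance of centred log2 CPM over the 6 libraries among 13297 named genes. For Vegfa they were Lrrc3b (0.023), Nabp1 (0.076) and Plaur (0.077). Nabp1, a gene for a single-stranded DNA-binding protein, had 2844, 2495 and 3795 counts in senescent and 337, 432 and 333 in quiescent libraries, and Plaur, the urokinase receptor gene, 5093, 4319 and 6232 in senescent and 539, 651 and 554 in quiescent libraries. Lrrc3b had 15, 13 and 21 counts in senescent and 0 in each quiescent library, so its likeness rests on the prior count of 2. For Tek, Cdca3 (0.085), a cell division gene, and Nrbp2 (0.124) were among the nearest. For Angptl4 they were Errfi1 (0.090), an inhibitor of the EGF receptor, Hmga1 (0.095) and Tnfrsf12a (0.102), the TWEAK receptor gene. With only senescent and quiescent libraries, this distance rests largely on the size of the group difference. The log2 fold change was 3.23 for Nabp1 and 3.34 for Plaur, beside 3.24 for Vegfa. Shared regulation was not tested.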

How the data were processed

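The deposited gene table holds raw counts by symbol, as whole numbers with a different sum in each of the 6 libraries. In the submitters' processing notes stand mm10, edgeR 3.32.1 and limma 3.46.0, with no role. The sources used here name no aligner, counter, strand setting or rule for multi-mapped reads. Per the labels' protocols, libraries were directional and read as pairs of 100 bp.

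All genes were fitted together with edgeR 4.0.16 in R 4.3.3: filterByExpr (minimum count 10), TMM, robust quasi-likelihood F test, Benjamini-Hochberg adjustment over 14065 genes and a threshold of 0.05. Each standard error was taken as log2 fold change over the root of F. The script was tested on simulated data with few changed genes, as many up as down. Since most genes were called in the real libraries, that simulation does not check the scaling used here. CPM used TMM-adjusted totals with the ribosomal rows (79.8% to 82.8% of counts) included, so levels look low. Depth covers counting error only. Positions, exon lengths and overlaps came from GENCODE M21 (GRCm38, the assembly of mm10), and promoters from RefSeq. The listed Ero1a was matched to the row Ero1l.

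The genes, lists and tests were chosen with earlier results of these data known. Named genes were the 10 genes, and the 4 highest and 4 lowest called genes of the pathway list and 3 and 3 of the others at a mean log2 CPM of at least 0. Named as well were the defining endothelial markers, Cdkn1a and Mdm2, overlapping genes and the nearest genes. Tie1, Gpihbp1, Ppara, Ppard, Pparg, Ptprc, Prox1, Lyve1, Mmrn1, Reln, Myh11, Nrp1, Angpt4, Angptl1, Angptl6, Angptl7, Angptl8, Ptprb, Svep1, Ccbe1, Adamts3, Furin, Pcsk5, Pcsk7, Itgb1, Thbs1, Thbs2, Hif1a and Epas1 were added to the text once their values were known. So were Thy1, Fn1, Col3a1, Pdgfra, Pdgfrb, Cd14 and Pirb. Settings tried besides were DESeq2 1.42.0, limma-voom (limma 3.58.1), other scalings, filters and thresholds, a replicate block, and leaving out each library. Repeat counts were not used here, and 1 of the nearest genes is not reported here.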

Additional observations from a re-analysis of the deposited data

How the results depend on the processing

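The calls of the 10 genes (4 higher, 5 lower) were the same under DESeq2, limma-voom, 4 other scalings, 2 other filters, an adjusted p under 0.01, the replicate block and each library left out. Against a 1.5-fold threshold tested directly (glmTreat) 4 were higher and 3 lower, and over all genes 2138 (15.2%) higher and 2460 (17.5%) lower. With that threshold 9 pathway genes and 1 hypoxia gene were lower, 3 genes of the PPAR list higher and 2 lower, and 3 activators higher and 1 lower. Scaling by library totals moved the median of all genes to -0.32, left 2952 genes higher, and gave -0.03 for Kdr, -0.79 for Vegfc and -0.72 for Angpt2, with 3 activators higher and 7 genes of the PPAR list lower. Upper quartile scaling moved the median to -0.12. Changes of single genes were followed over 15 alternatives, which did not include the 1.5-fold threshold. Over these the adjusted p of Kdr ran from 0.068 to 0.89 and that of Angpt2 from 7.7e-06 to 0.021. With 1 library left out, log2 fold changes ran from 3.10 to 3.31 for Vegfa, -0.61 to -0.42 for Vegfc, -0.50 to -0.30 for Angpt2 and 0.10 to 0.38 for Kdr. The replicate numbers did not pair the samples (correlations of deviations 0.05, -0.01 and 0.06), and the replicate block gave 5124 genes higher and 5281 lower, 4 and 5 among the 10. The same alternatives were read for 44 other named genes, where tested. Of these, Hif1a lost its call under library totals (adjusted p = 0.41, the highest of a range from 4e-11). Ptprb lost its call under library totals (adjusted p = 0.15, the highest of a range from 3.5e-06), with no count filter (adjusted p = 0.099) and in 4 fits with a library left out. The overlapping genes Mcph1 and Ralgps1 passed as lower under library totals (-0.40 and -0.51). The 5 count ratios kept their direction with 1 added to both counts and with each library left out. Senescent Tek, at 42 to 64 counts, has the fewest counts of the 10 genes.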

Other observations

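Thrombospondin genes of the pathway list rose and the matrix gene Svep1 fell. Thbs1, which encodes thrombospondin 1, an inhibitor of angiogenesis, was at 2580, 2510 and 2400 CPM in senescent and 372, 415 and 365 CPM in quiescent libraries (log2 fold change 2.70, standard error 0.07, adjusted p = 8.9e-11). Its relative Thbs2 rose by 1.20. Svep1, whose product is a matrix protein needed for lymphatic growth, was at 75.8, 71.0 and 63.4 CPM in senescent and 198, 194 and 176 CPM in quiescent libraries (-1.43, adjusted p = 1e-08). Angptl1, a further angiopoietin-like gene, had 13, 15 and 4 counts in senescent and 34, 48 and 43 in quiescent libraries (-1.77, adjusted p = 0.00063), opposite to Angptl2 and Angptl4. Angptl6, Angptl7 and Angptl8 were lower as well, at low counts.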
